A study of Mus musculus with 24 samples.

Results

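The comparison set 12 arrays of thymocytes against 6 arrays of fetal liver B cells, 18 of the 24 arrays of the series, and asked which genes separate the T from the B lineage in these cells. The arrays were chosen by their titles: those of wt thymus on one side, and those of wt fetal-liver B cells on the other. The thymocytes came from mice heterozygous for Foxn1 (Foxn1 +/-), which the titles call wt. They were DN3 cells, the third CD4 and CD8 negative stage (arrays 7, 8 and 9), CD4 and CD8 double-positive DP cells (2, 3 and 3A), CD4 single-positive SP4 cells (10, 11 and 12) and CD8 single-positive SP8 cells (13, 14 and 15). The B cells were from fetal liver of wild-type mice, for which no Foxn1 genotype is labelled, and were sorted as negative (B IgM-, arrays 16, 17 and 18) or positive (B IgM+, arrays 19, 20 and 21) for surface IgM. No group was treated, and the labels used here give no age of the mice. Flow cytometry was used to isolate every population, the sorted cells were lysed directly, and polyA RNA was amplified by PCR (the SuperAmp procedure) before labelling with Cy3. Lineage, tissue and the stage of life of the tissue changed together, so they cannot be told apart here. The cell type label of the SP4 arrays names SP8 as well, and the title decided. Whether replicate arrays hold separate animals is not labelled, so each p-value reflects only how far these arrays scatter, and that scatter may be technical.

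T and B lymphocytes descend from shared progenitors and differ in the antigen receptor that they assemble. Thymocytes rearrange the T cell receptor loci and read them out with the CD3 chains, under transcription factors such as Tcf7 (TCF-1), Bcl11b and Gata3. Fetal liver B cells rearrange the immunoglobulin heavy chain locus and then a light chain locus, most often kappa in mice. They carry CD79a and CD79b as signalling chains and depend on Ebf1 and Pax5. Surface IgM appears once a light chain pairs with the heavy chain.

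The receptor probes on which the lineage results turn are shown first, as 60-base probe sequences of the array design, with positions of the array annotation (build mm9). The Trbc2 probe (chr6:41497058-41497622) and the Trac probe (chr14:54841802-54842701) are placed over stretches longer than their own 60 bases and read the constant regions of the T cell receptor beta and alpha chains. The Igkc probe (chr6:70676692-70676751) reads the kappa constant region. The other pair are the kappa variable segments Igkv1-135 (chr6:67560270-67560329) and Igkv1-131 (chr6:67716170-67716229). Igkv1-131 lies on the minus strand and the others on the plus strand. Capitals mark the longest run that this pair shares, which is 20 bases, so that RNA of either segment may bind both probes in part.
Trbc2: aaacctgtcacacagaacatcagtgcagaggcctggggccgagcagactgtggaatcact
Trac: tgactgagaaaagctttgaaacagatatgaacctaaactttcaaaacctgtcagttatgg
Igkc: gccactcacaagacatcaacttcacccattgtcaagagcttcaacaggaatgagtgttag
Igkv1-135: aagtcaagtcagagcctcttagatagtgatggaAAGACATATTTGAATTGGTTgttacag
Igkv1-131: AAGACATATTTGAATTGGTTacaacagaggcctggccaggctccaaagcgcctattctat

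On the 18 arrays the share of probes well above background ran from 87.4% to 96.6%. Levels are log2 signals relative to the 75th percentile of the array, so a level of 0 is that of a bright probe, and differences are thymocytes minus B cells on the log2 scale with their standard error. A gene was called at a Benjamini-Hochberg adjusted p under 0.05 in limma over 33548 genes. The array B IgM+ 21 stood apart, at 210.0 on the first principal component (18.0% of variance), while the other 17 arrays lay between -52.4 and 42.7. The arrays B IgM+ 19 and SP4 12 lay at -106.2 and 98.7 on the second (10.4%). Thymocytes and B cells shared only slide 1, which held SP4 11 and B IgM+ 19; slides 2 and 3 held other thymocytes and slide 4 the other B cells. The value within slide 1 (SP4 11 minus B IgM+ 19, 1 array each, no test) or with slide as a block is given for the leading genes and for the list medians, and the closing section names the other genes that it turns.

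**Figure D1:**
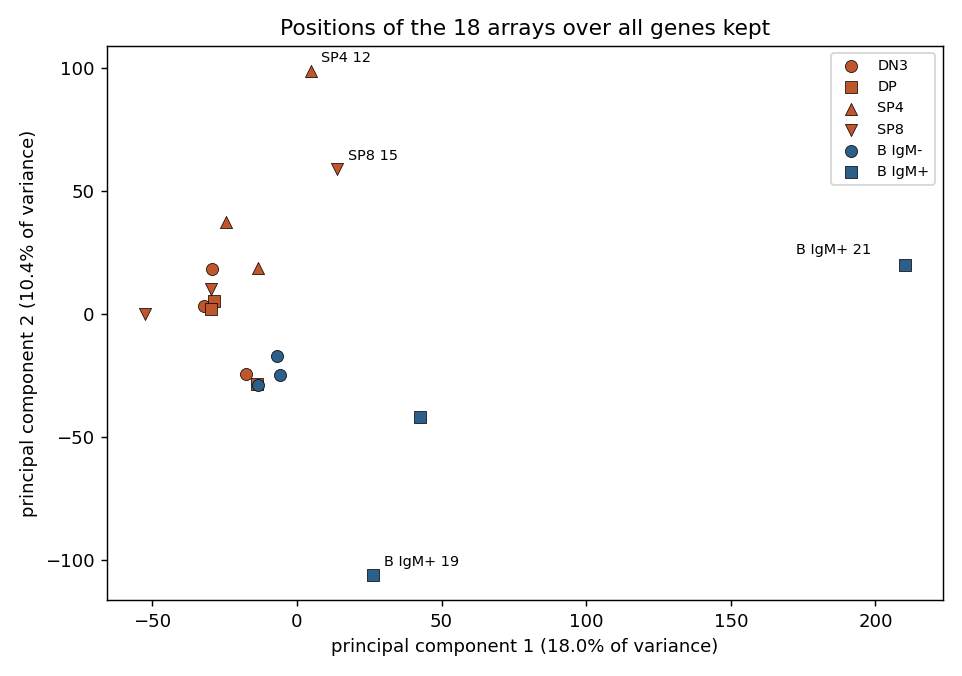
Positions of the 18 arrays on the first and second principal components (18.0% and 10.4% of the variance) over all genes kept, with thymocyte stages in orange and B groups in blue and 1 point per array. B IgM+ 21 lies at 210.0 on the first component, and B IgM+ 19 (-106.2) and SP4 12 (98.7) lie farthest apart on the second.

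In thymocytes 31 genes were higher (0.0924% of genes tested) and 51 were lower (0.152%). The gene with the largest rise was Tcf7, a T lineage transcription factor, and Trbc2, a constant gene of the beta chain, was the other lineage gene that rose. The kappa light chain constant gene Igkc was the lineage gene that fell. Under other scalings the split changed: 29 were higher and 111 lower with quantile scaling, and 13 were higher and 37 lower with median scaling. The median difference of all genes was 0.06 (-0.01 with quantile and -0.03 with median scaling), and 57.5% of genes lay above 0. DP 3 and 3A share a title number and were counted as separate samples; with arrays of a shared number averaged, DP 3 and 3A among them, 2 genes were higher and none lower. An unadjusted p under 0.05 was reached by 4478 genes, of which 8.3% of genes tested were higher and 5.05% lower. With slide as a fixed block 17 genes were higher and 15 lower, and none of them was among the 31 and 51. The direction was kept there by 27 of the 31 and 47 of the 51. With slide as a random block 0 genes were called in limma, with 3289 at an unadjusted p under 0.05.

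The counts rested on single arrays and on the arrays that gave the spread. Without B IgM- 16, B IgM- 18 or B IgM+ 21 no gene was called in limma, with 3639, 3592 and 3915 genes at an unadjusted p under 0.05, and without B IgM- 17 only 1 was called. The calls were 26 higher and 32 lower without B IgM+ 21 and the transgenic B array 23 together. On the 18 arrays alone, without the 6 transgenic ones in the fit, they were 116 and 93, and on these less B IgM+ 21 they were 18 and 6, a setting chosen after seeing the data. Without B IgM+ 19, 219 genes were higher and 146 lower. Leaving out a thymocyte array gave between 5 (DP 3A and SP8 13) and 36 (SP4 11) higher genes, and between 4 and 67 (DN3 8) lower genes. Leaving out B IgM+ 20 gave 48 and 52. Both counts fell by over 1.5 times without DP 3A or SP8 13 (5 and 4 each), DP 2 (7 and 14), DN3 7 (8 and 17), DN3 9 or SP4 10 (8 and 12 each), SP4 12 (20 and 24) or SP8 14 (10 and 20). Without SP8 15 they were 21 and 19.

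**Figure D2:**
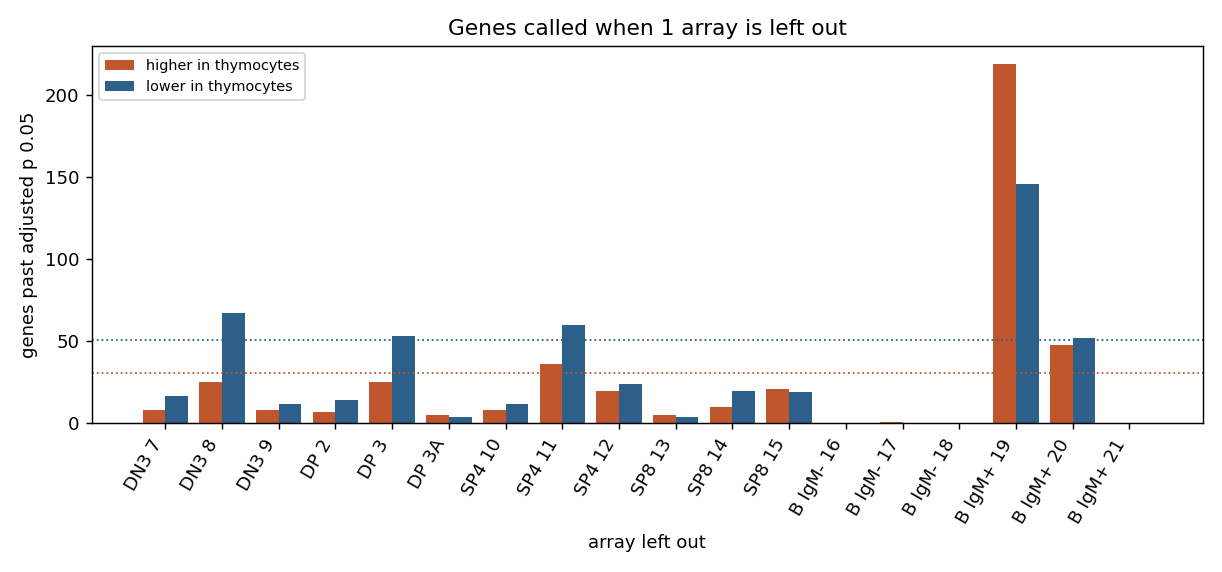
Number of genes past an adjusted p of 0.05 (y axis) when the array named on the x axis is left out, with genes higher in thymocytes in orange and lower in blue. Dotted lines mark the counts with all arrays, 31 and 51. Without B IgM- 16, B IgM- 18 or B IgM+ 21 both bars are at 0, and without B IgM+ 19 they reach 219 and 146.

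Tcf7 (chr11:52066114-52066173), which encodes TCF-1, separated the lineages on every array. Its level in thymocytes had a lowest value of -3.33, a median of -0.55 and a highest of 1.68, against -7.47, -4.41 and -3.45 in B cells. All 12 thymocyte arrays lay above all 6 B arrays, and SP8 14 (-3.33) came closest to B IgM- 18 (-3.45). The mean was -0.48 ± 1.63 in thymocytes (SD, n = 12) and -4.77 ± 1.42 in B cells (SD, n = 6), a difference of 4.29 ± 0.64 or 19.5-fold (limma, adjusted p = 0.0187). Within thymocytes the stage means were 0.72 ± 0.80 in DN3, -1.06 ± 0.58 in DP, 0.79 ± 1.18 in SP4 and -2.38 ± 1.29 in SP8 (SD, n = 3 each), and the F test between stages gave an unadjusted p of 0.0196 and an adjusted p of 1. The probe was not well above background on B IgM+ 19. With that array raised to its lowest signal well above background the difference was 3.91, and within slide 1 only a bound holds, at least 25.3-fold higher in SP4 11 than in B IgM+ 19. The difference was 4.31 with slide as a block (adjusted p = 0.220). A second Tcf7 probe was well above background on 11 of 12 thymocyte arrays and 1 of 6 B arrays. It differed by 4.50 as measured and by 3.16 with the dim arrays raised in the same way, an alternative chosen after seeing the data. Without B IgM- 16, B IgM- 17, B IgM- 18 or B IgM+ 21 the adjusted p was 0.062 to 0.077.

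Trbc2, the constant region of the T cell receptor beta chain, was the second lineage gene with no overlap. It stood at a lowest value of 0.99, a median of 1.96 and a highest of 3.33 in thymocytes, against -1.21, -0.33 and -0.07 in B cells. DN3 (2.80 ± 0.74) and SP4 (2.65 ± 0.64) were the higher stages, and DP (1.41 ± 0.37) and SP8 (1.60 ± 0.54) the lower ones (SD, n = 3 each; stage F test, unadjusted p = 0.0913). Trbc2 averaged 2.12 ± 0.82 in thymocytes (SD, n = 12) and -0.42 ± 0.42 in B cells (SD, n = 6), a difference of 2.54 ± 0.39 or 5.81-fold (limma, adjusted p = 0.0187). It was 2.09 within slide 1 but 0.31 with slide as a block (adjusted p = 0.946), and its adjusted p was 0.062 to 0.077 without B IgM- 16, B IgM- 17, B IgM- 18 or B IgM+ 21. Trbc1, its near-identical neighbour, differed by 0.87 ± 0.23 (adjusted p = 0.107), with 11 of 12 thymocyte arrays above all B arrays. The probes of these paralogs may share RNA, so the share of each is uncertain.

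**Figure D3:**
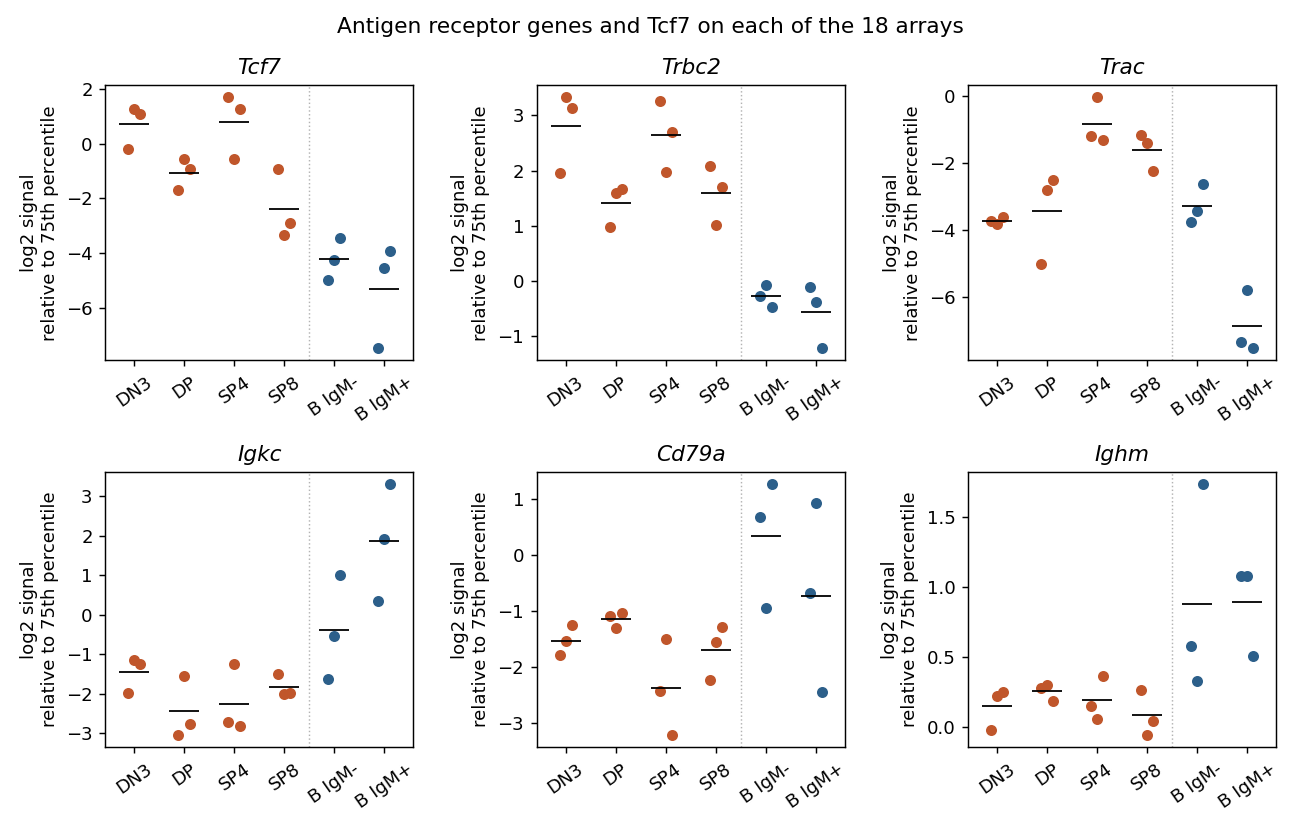
Level (log2 signal relative to the 75th percentile of the array) of Tcf7, Trbc2, Trac, Igkc, Cd79a and Ighm on each of the 18 arrays, by group, with thymocyte stages in orange, B groups in blue and a line at each group mean (n = 3). Tcf7 and Trbc2 lie higher on every thymocyte array than on any B array, Trac is highest in SP4 and SP8, and Igkc is highest in B IgM+. Trac in B IgM+ and Tcf7 on B IgM+ 19 were not well above background.

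Among the T cell receptor constant genes and CD3 chains, 6 of the 8 measured members (of 12 listed) were higher, 1 of them called, with a median difference of 0.73 against 0.06 over all genes. The median with slide as a block was 0.28, against -0.02 over all genes. Trac is the constant region of the alpha chain, whose variable segments rearrange after those of the beta chain. Its levels were -3.73, -3.80 and -3.61 in DN3, -2.79, -2.51 and -4.99 in DP, -1.18, -0.05 and -1.33 in SP4, and -1.16, -1.39 and -2.25 in SP8. They were -3.76, -3.43 and -2.62 in B IgM-, and -7.32, -5.76 and -7.50 in B IgM+. DN3 and DP thus overlapped B IgM-, while SP4 and SP8 lay above every B array, and the probe was not well above background on the 3 B IgM+ arrays. Its difference of 2.66 ± 0.71 did not pass (adjusted p = 0.111), and it was 2.03 with those arrays raised to their lowest signal well above background. Cd3e, a CD3 chain, was at 0.51 ± 0.12 in thymocytes (SD, n = 12) and 0.76 ± 0.10 in B cells (SD, n = 6), a difference of -0.25 ± 0.08 (adjusted p = 0.167). The probe that the array annotation names Tcra differed by -0.32 ± 0.10 (adjusted p = 0.154).

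Of 14 T lineage transcription factors, all measured, 10 were higher, 1 of them called (Tcf7), and none was called lower. The median difference was 0.21 against 0.06 over all genes (0.08 with quantile scaling, 0.13 with median scaling and 0.36 with slide as a block). Satb1, a chromatin organiser of thymocytes, stood between -0.91 and 2.34 on 11 thymocyte arrays but at -6.48 on SP8 15, against -5.41 to -2.01 on B arrays. Its difference was 3.31 ± 0.70 (adjusted p = 0.0550). Without SP8 15 it passed, and the probe was well above background on 11 of 12 thymocyte arrays and 5 of 6 B arrays. Bcl11b, a T commitment factor, differed by 1.23 ± 0.33 (adjusted p = 0.112) and was at -0.52 with slide as a block. Ets1, a factor of both lineages, differed by 1.39 ± 0.38 (adjusted p = 0.117), and Lef1, a relative of Tcf7, by 1.08 ± 0.52 (adjusted p = 0.381).

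Many genes that define T cells in other assays were not separated. Cd4 had 3.48 ± 0.11 in thymocytes (SD, n = 12) and 3.65 ± 0.18 in B cells (SD, n = 6), and its stage means lay between 3.39 in SP8 and 3.57 in SP4 (stage F test, unadjusted p = 0.713). Il2ra, the CD25 chain that marks DN3, was at -3.11 ± 0.39 in thymocytes and -2.89 ± 0.30 in B cells. The coreceptor genes Cd8a and Cd8b1 differed by 0.31 ± 0.34 and 0.16 ± 0.29 (adjusted p = 0.743 and 0.867), and by -0.38 and -0.41 with slide as a block. A second Cd8a probe gave -0.46, -0.70 and -0.13 in SP8, against -3.65, -3.06 and -3.65 in B IgM- and -3.62, -5.00 and -6.53 in B IgM+. On that probe SP8 was the highest thymocyte stage, and the SP4 arrays (-3.59, -3.79 and -5.68) lay among the B arrays. Of 9 marker genes for T cells, 7 were higher and 2 called, beside 57.5% higher and 0.0924% called higher over all genes tested. Of 8 for B cells, 7 were lower and none called. Over all genes 14271 of 33548 were lower and 0.152% were called lower. Most of the markers were thus not called, though most lay in the direction of their label. The exceptions in direction were Cd3e and Lck, and Vpreb1 (0.04).

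Of 25 genes of T cell receptor signalling and the T cell surface, 18 were higher and none was called. The median was 0.12, but -0.26 with slide as a block and -0.07 within slide 1. Thy1, a surface protein of thymocytes, was at 0.50 ± 0.17 (adjusted p = 0.193), and Cd2, an adhesion receptor, at 0.84 ± 0.30 (adjusted p = 0.212). Themis, a T cell receptor signalling adaptor, was at 1.28 ± 0.49 (adjusted p = 0.252). With slide as a block, Cd2 was at -0.63 and Themis at -1.66. Among cytokine receptors and their JAK-STAT signalling, 12 of 16 measured genes were higher and none was called, with a median of 0.17 (0.05 with slide as a block). Il2rg, the common cytokine receptor chain, differed by 2.96 ± 0.76 (adjusted p = 0.1005). Its levels were -3.30 to -0.05 in thymocytes, against -3.76, -1.89 and -2.56 in B IgM- and -3.73, -7.93 and -7.41 in B IgM+. The probe was not well above background on B IgM+ 20 and B IgM+ 21, and the difference was 2.35 with these arrays raised and -3.39 with slide as a block.

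On the B side, Igkc was lower in thymocytes. Its level had a lowest value of -3.04, a median of -1.99 and a highest of -1.16 in thymocytes, against -1.64, -0.55 and 0.997 in B IgM- and 0.33, 1.93 and 3.31 in B IgM+. All 3 B IgM+ arrays lay above every thymocyte array, while B IgM- 16 lay within the thymocyte range. The mean was -2.01 ± 0.69 in thymocytes (SD, n = 12) and 0.73 ± 1.77 in B cells (SD, n = 6), a difference of -2.73 ± 0.50 (limma, adjusted p = 0.0357), that is 6.66-fold higher in B cells. The difference was -1.60 within slide 1 and -0.30 with slide as a block (adjusted p = 0.968). Its adjusted p exceeded 0.05 when any of DP 3A, DN3 7, DN3 9, SP4 10, SP4 12, SP8 13, SP8 14, SP8 15, B IgM- 16, B IgM- 17, B IgM- 18 or B IgM+ 21 was left out, with 0.120 as the highest. The other probe named Igkc (chr6:70690489-70690548) differed by -0.64. B IgM+ minus B IgM- was 2.26 for Igkc (adjusted p = 0.596), so that difference did not pass. In sorted pools of cells, fewer cells of a type and less RNA per cell cannot be told apart.

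Of 9 measured genes of the B cell receptor and surrogate light chain (of 11 listed), 7 were lower, 1 of them called, with a median of -0.32 (-0.23 with slide as a block). Cd79a, a signalling chain of the receptor, was at -3.22 to -1.05 in thymocytes, against 0.69, -0.94 and 1.27 in B IgM- and -0.68, 0.93 and -2.46 in B IgM+. All B arrays but B IgM+ 21 lay above the thymocytes, and the difference of -1.49 ± 0.46 did not pass (adjusted p = 0.157). Ighm, the mu heavy chain, was 0.17 ± 0.14 in thymocytes (SD, n = 12) and 0.89 ± 0.52 in B cells (SD, n = 6), with 11 of 12 thymocyte arrays below every B array. Its difference was -0.72 ± 0.30 (adjusted p = 0.301). Cd79b, the partner of Cd79a, differed by -0.46 ± 0.19 (adjusted p = 0.292), and the surrogate light chain gene Vpreb2 by -0.22 ± 0.09 (adjusted p = 0.259).

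Of 16 B lineage transcription factors, 8 were lower and 8 higher, with a median of -0.04 (-0.32 with slide as a block) and none called. Pax5, which maintains B identity, was at 0.98 ± 0.13 in thymocytes (SD, n = 12) and 1.36 ± 0.39 in B cells (SD, n = 6), a difference of -0.38 ± 0.12 (adjusted p = 0.165). Its second probe differed by 0.13. Pou2af1, a B cell coactivator, differed by -0.81 ± 0.32 (adjusted p = 0.270) and Spib, an Ets factor, by -1.24 ± 0.75 (adjusted p = 0.505). Of 23 measured genes of receptor signalling and the B cell surface, 16 were lower and none called, with a median of -0.10 (-0.16 with slide as a block). Cr2, the complement receptor CD21, differed by -0.36 ± 0.09 (adjusted p = 0.0800).

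The genes of MHC class II presentation stood lower in thymocytes as a list, 9 of 10 measured, but none was called. The median was -0.37 against 0.06 over all genes, and 0.03 with slide as a block. H2-Eb1, a class II beta chain, was at -2.47 ± 0.25 in thymocytes (SD, n = 12) and -1.95 ± 0.23 in B cells (SD, n = 6), and 11 of 12 thymocyte arrays lay below every B array (difference -0.52 ± 0.13, adjusted p = 0.0988). H2-Ab1, another class II beta chain, differed by -0.45 ± 0.15 (adjusted p = 0.179). H2-Oa and H2-Ob, the chains of H2-O, differed by -1.05 ± 0.30 and -0.75 ± 0.23 (adjusted p = 0.136 and 0.154). Both were highest on B IgM+ 21, at 1.16 and 1.83, and both were positive with slide as a block (0.53 and 0.44). Of 12 class I presentation genes, 7 were lower, with a median of -0.04 (0.02 with slide as a block) and none called.

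**Figure D4:**
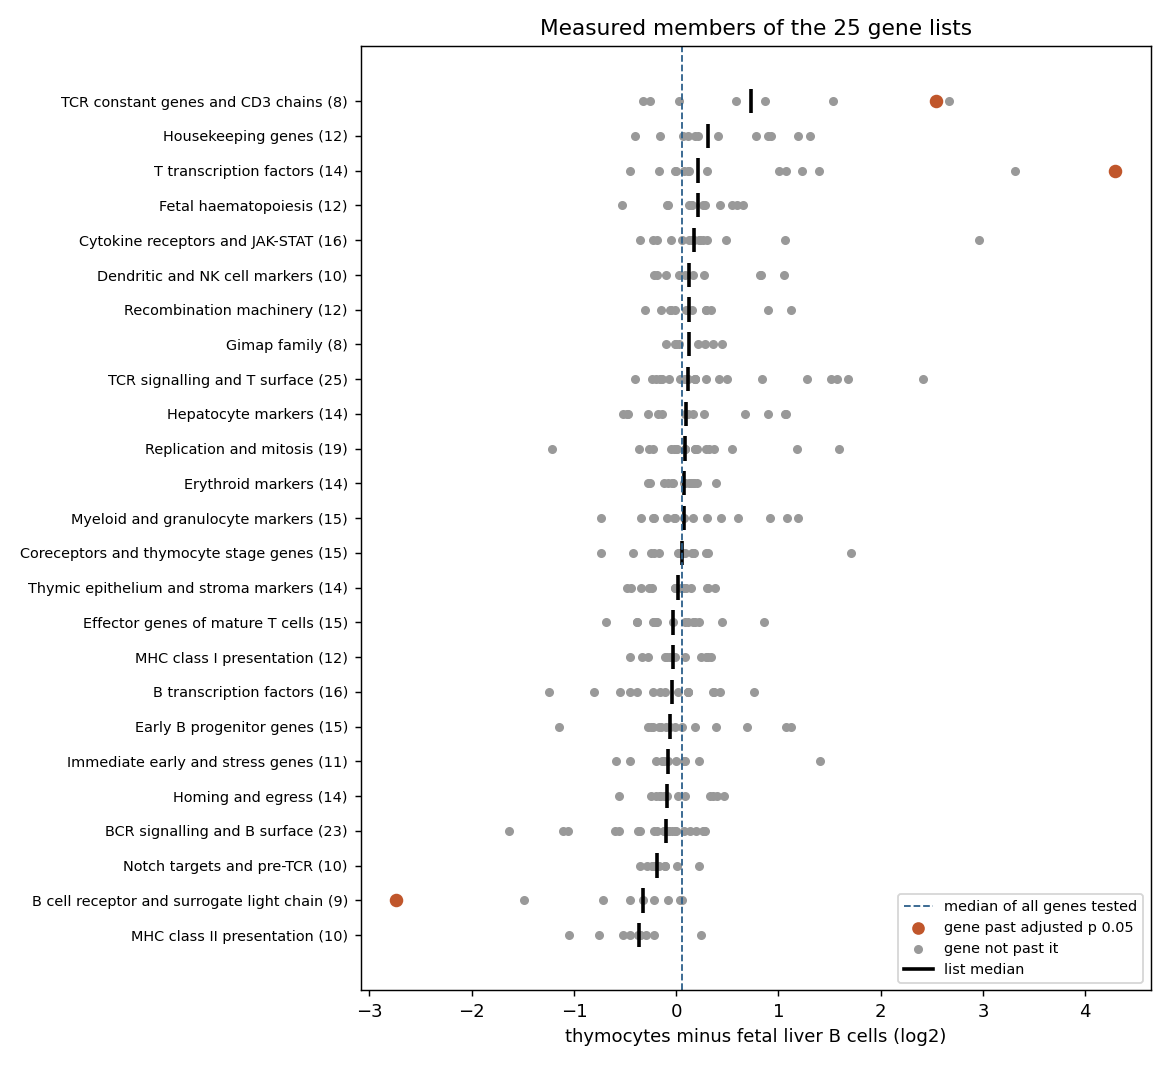
Difference of thymocytes minus fetal liver B cells (log2, x axis) for every measured member of 25 gene lists (rows, number measured in brackets), with the list median as a black bar and the median of all genes as a dashed line. The called genes are Tcf7 and Trbc2 on the right and Igkc on the left; the T cell receptor list has the highest median (0.73) and MHC class II the lowest (-0.37).

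The variable segments of the receptor loci, read one by one, did not follow the constant regions. No variable segment of any of the 7 loci was called. Of 27 T cell receptor alpha variable segments 20 were higher (median 0.17), and of 20 beta segments 13 (median 0.07). Of 55 immunoglobulin kappa variable segments 43 were also higher in thymocytes (median 0.15), and of 25 heavy chain segments 16 (median 0.02). Igkv1-135 and Igkv1-131 lay the other way, at -1.11 ± 0.24 (adjusted p = 0.0622) and -2.39 ± 0.64 (adjusted p = 0.109), and were named after their values were seen. Igkv1-131 was at -6.58 to -1.09 in thymocytes, against -0.62, -1.04 and 0.55 in B IgM+ and -2.87, -3.25 and -3.14 in B IgM-. Igkv1-135 was at -2.39 to -1.56 in thymocytes, against 1.10 on B IgM+ 21 and -1.85 to -0.52 on the other B arrays. Variable segments of a family are alike in sequence, so a probe may read several of them.

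Most genes that fell did so by a small step. Of the 51 falls, 30 had every thymocyte array below every B array, as 0.301% of all genes did. Of the 31 rises, 6 had every thymocyte array above every B array, as 0.14% of all genes did. The genes were called on these same arrays, so a share above that of all genes follows from the choice. The median size was 0.59 for the falls and 1.04 for the rises. Only 5 falls but 18 rises were larger than 1. For 11 of the 31 rises the probe was not well above background on at least 1 B array, the lower side. On the lower side of the falls, the thymocytes, this held for 1 of the 51 on at least 1 array. Of the rises 14, and of the falls 21, carried no symbol of the reference gene table.

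Ntn1 (chr11:68022986-68023045), the guidance cue netrin-1, was the largest fall without overlap among genes with a symbol. It stood at -3.72, -3.46 and -2.67 (lowest, median and highest) in thymocytes, against -2.52, -2.34 and -2.21 in B cells, a difference of -0.94 ± 0.16 (adjusted p = 0.0267). The difference was -0.71 within slide 1 and -0.74 with slide as a block. Fbxo17, a subunit of a ubiquitin ligase, fell by 0.72 (SE 0.10, adjusted p = 0.0187), with thymocytes at -0.70 to 0.02 and B cells at 0.08 to 0.54. Zfp446, a zinc finger gene, fell by 0.68 (SE 0.10, adjusted p = 0.0187), with thymocytes at 0.80 to 1.38 and B cells at 1.61 to 1.99. On both genes the highest thymocyte array lay close below the lowest B array.

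The other falls described by the same rule lay between -0.70 and -0.51. They held Abcb8, a mitochondrial transporter (-0.70), Samd8, a sphingolipid enzyme (-0.63), Tnfrsf22, a decoy receptor for TRAIL (-0.61), Ankrd12 (-0.58), Adal (-0.55) and Pidd1, a death domain protein that activates caspase-2 (-0.51). No role is given here for 9530062K07Rik (-0.67), Gm10433 (-0.63), 2310043M15Rik (-0.61), 1700066J03Rik (-0.58) and Gm6958 (-0.57). With slide as a block Tnfrsf22 was at 0.11, and the others kept their direction. Among rises that overlapped the B arrays were Ezh2, a histone methyltransferase, and Rasa1, a Ras regulator, named after their values were seen. Neither was well above background on any B array. Ezh2 was well above it on 8 of 12 thymocyte arrays and Rasa1 on 4 of 12. Over DN3, DP, SP4 and SP8 Ezh2 averaged -6.38, -4.99, -4.95 and -4.92, against -6.48 in B IgM- and -7.29 in B IgM+. Rasa1 averaged -6.39, -7.27, -4.08 and -5.97 over these stages, against -7.65 in B IgM- and -7.80 in B IgM+. On these 18 arrays both could enter the test only through thymocyte groups, where they are higher. The Ezh2 difference as measured was 1.58 ± 0.31 (limma, adjusted p = 0.0450), and it rests on B values not well above background. Only a bound holds for Ezh2, at least 1.26-fold higher in thymocytes, and the bound itself was not tested. No fold is given for Rasa1.

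A second probe of the same gene was often at odds with the tested one. Of the called genes with a symbol, 7 rises and 19 falls had another probe. All other probes pointed the same way for 5 of the 7 rises and for 9 of the 19 falls. The other probe lay above 0 for Fbxo17 (0.21), Zfp446 (0.05), Ankrd12 (0.17), Adal (0.40) and Pidd1 (0.01). For Abcb8 it was at -0.30, for Tnfrsf22 at -0.07 and for Ntn1 at -0.03. With the mean of a gene's probes in place of the brightest, 4 genes were higher and 1 lower, and Tcf7 and Trbc2 were still called.

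**Figure D5:**
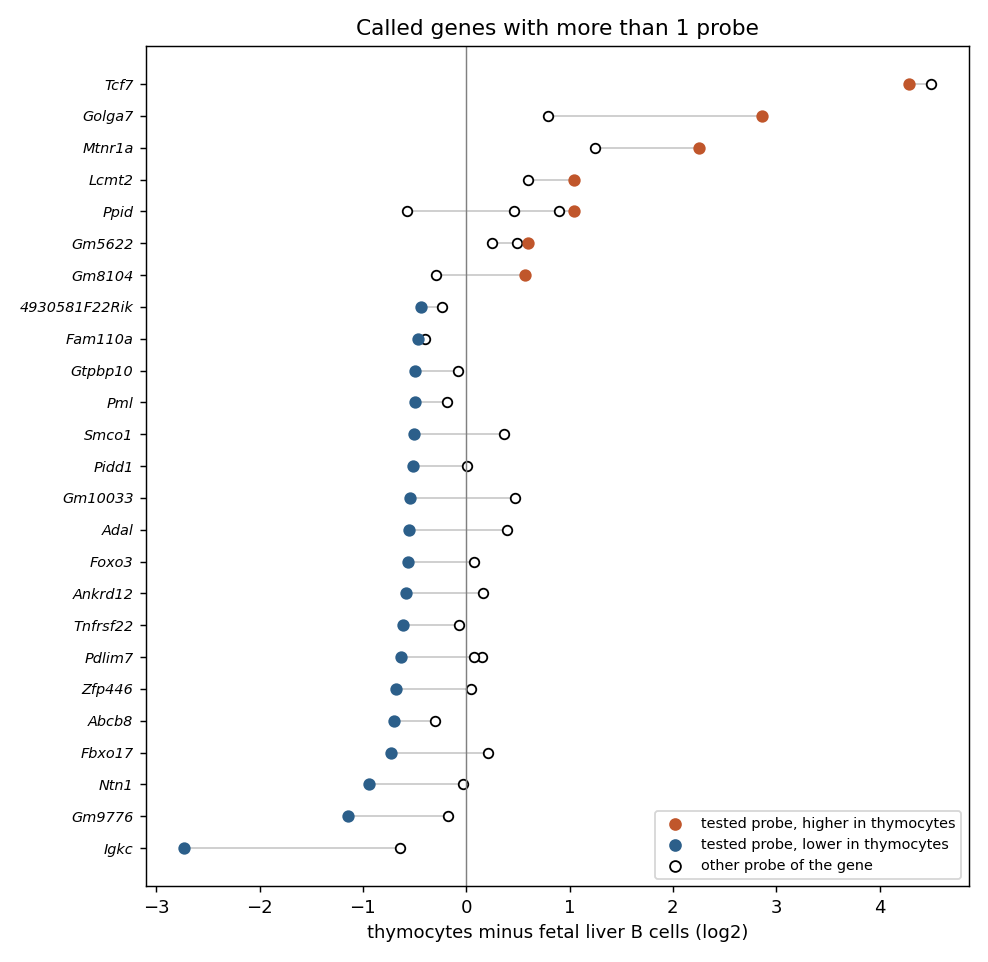
Difference of thymocytes minus fetal liver B cells (log2, x axis) for 25 called genes that have more than 1 probe, with the tested probe filled and the other probes open. The open circle of Tcf7 (4.50) rests on a probe that was well above background on 1 of 6 B arrays. For 9 of the 18 falls drawn an open circle lies above 0.

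Each stage was also set against the same 6 B arrays, so the stage values are not independent of each other. SP4 minus B called 11 genes higher (0.0328%) and 2 lower (0.00596%), among them Tcf7 (5.57, adjusted p = 0.038). DN3, DP and SP8 minus B called 0 genes in limma, with 2327, 2593 and 2718 genes at an unadjusted p under 0.05. Tcf7 was at 5.49 in DN3, 3.71 in DP, 5.57 in SP4 and 2.39 in SP8 minus B, and Trbc2 at 3.22, 1.84, 3.07 and 2.02. The F test between the 4 stages called 0 genes, with 1318 at an unadjusted p under 0.05.

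Against B IgM+ cells alone, thymocytes had 173 genes higher (0.516%) and 39 lower (0.116%). The median of all genes was 0.13 there, and -0.03 against B IgM- cells. The share of probes well above background was 88.9%, 91.8% and 87.4% on B IgM+ 19, 20 and 21. It was 87.4% to 96.6% on thymocyte arrays. Whether this share or the arrays that stood apart, B IgM+ 19 and 21, shaped the counts was not tested. Against B IgM- cells alone 0 were called in limma, with 1925 genes at an unadjusted p under 0.05. B IgM+ minus B IgM- itself called 0 genes, with 2384 at an unadjusted p under 0.05, so the comparisons were not shown to differ. Trac was not well above background on any B IgM+ array (mean -2.40 in thymocytes and -6.86 in B IgM+). Only a bound thus holds there, at least 9.13-fold higher in thymocytes. The adjusted p of 0.0371 (limma) belongs to the difference as measured, and the bound was not tested. Against B IgM- Trac was at 0.87 ± 0.92 and was not called. Igkc was at -3.86 against B IgM+ (adjusted p = 0.0212) and at -1.61 against B IgM- (adjusted p = 0.703).

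Among markers of other cells that fetal liver or thymus could hold, no gene was called. Of 14 hepatocyte markers 8 were higher and none called, and the mean level of the list per array spanned -2.49 to -1.62 in thymocytes and -2.77 to -1.68 in B cells. Alb, the albumin gene, was well above background on 10 of 12 thymocyte arrays and 3 of 6 B arrays. Of 14 measured erythroid markers 8 were higher and none called (-1.83 to -1.36 in thymocytes and -1.72 to -1.41 in B cells). Of 15 myeloid markers 8 were higher and none called (-1.005 to -0.40 in thymocytes and -1.29 to -0.66 in B cells), led by S100a9 at 1.19 ± 0.41 (adjusted p = 0.205). Of 14 thymic epithelium and stroma markers 7 were higher and none called (-0.78 to -0.33 in thymocytes and -0.87 to -0.39 in B cells); Foxn1, the gene that the thymus donors carry in 1 copy, was at 0.38 ± 0.15 (adjusted p = 0.274). The medians of these 4 lists with slide as a block were 0.29, 0.03, 0.10 and 0.16, beside 0.10, 0.08, 0.07 and 0.02 without it.

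Most housekeeping genes lay higher in thymocytes, but the arrays of the lineages overlapped. The mean level of the list per array ran from -0.83 to 0.23 in thymocytes and from -1.50 to -0.40 in B cells. Of 12 such genes 10 were higher in thymocytes, none called, with a median of 0.31 (0.25 with quantile and 0.22 with median scaling, and -0.07 with slide as a block). Gapdh, a glycolytic enzyme, averaged 4.42 ± 0.11 in thymocytes (SD, n = 12) and 4.01 ± 0.14 in B cells (SD, n = 6), with no overlap (difference 0.41 ± 0.09, adjusted p = 0.0619). Eef1a1, a translation factor, differed by 1.19 ± 0.31 (adjusted p = 0.0999). Their part in the other results was not tested. Of 19 measured genes of replication and mitosis 13 were higher, with a median of 0.09 (-0.09 with slide as a block) and none called. Plk1, a mitotic kinase, was lower without overlap (1.67 to 2.16 in thymocytes and 2.20 to 2.59 in B cells, adjusted p = 0.0788).

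The 6 arrays of the transgenic, Foxn1-deficient (-/-) thymus are in neither side of the contrast. They do share in the fit's estimate of the spread and, with slide as a block, in its slide terms. They held 4 arrays of DP cells and 2 of B IgM- cells. On them, 25 of the 31 rises were higher in DP than in B cells, as were 58.3% of all genes, and 46 of the 51 falls were lower, as were 41.7% of all genes. Without the array tg B 23 these were 22 of 31 (54.4%) and 46 of 51 (45.6%). Tcf7 stood at -3.35, 0.53, -0.86 and 1.08 on the tg DP arrays, against -4.56 and -6.09 on the tg B arrays, the probe being not well above background on tg B 23. Trbc2 was at 0.24, 2.43, 1.73 and 3.77 in tg DP and at -0.96 and 0.02 in tg B cells. Both genes kept every tg DP array above every tg B array. Igkc was at -2.73, -2.24, -1.68 and -3.45 in tg DP and at -3.05 and -0.09 in tg B cells, which overlap. The tg B arrays lay on slide 4, with most fetal liver B arrays, and the tg DP arrays on slides 1 and 2, with thymocytes. Slide and lineage thus cannot be told apart on the transgenic arrays either. These values were not tested.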

How the data were processed

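Intensities were read from the deposited spot files, 1 Agilent single-colour array per sample, made by the authors with Feature Extraction (program and build mm9 per the file headers). The processed signal is background-subtracted and detrended by that program, and its flags mark spots that are non-uniform, saturated or clearly above background. The log2 values of the authors' deposited value table, which have equal distributions between arrays, served as an alternative. Depth does not apply to arrays; the number of arrays limits the precision.

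From these, the 3671 control spots of 62976 were dropped, 248 values from non-uniform spots became missing, and spots of 1 probe were averaged (55681 probes). The value is the log2 processed signal less the 75th percentile of its array. Each gene has the value of its brightest probe, and stayed in where all arrays of some group had a probe of it well above background (33552 genes, of which 33548 could be tested). Names came from a reference gene table through the accession, symbol, synonym or description.

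Group means over all 24 arrays were fitted with limma 3.58.1 in R 4.3.3 and adjusted by Benjamini-Hochberg. The contrast is the mean of DN3, DP, SP4 and SP8 minus the mean of B IgM- and B IgM+. The analysis was tested on simulated data with independent normal scatter. Those data held no slide effect, outlying array or background floor, so that test does not bear on these features. Named genes are up to 15 rises and 15 falls called without overlap and with a symbol, up to 4 members with the largest moderated t in each of 25 gene lists, 14 sort and lineage genes, and their other probes where these disagree; some are not described, and a few that the rule covers are not reported here. The comparison, its members and the lists were chosen with earlier results of these data known. Alternatives were other backgrounds, scalings, filters, sets of arrays, slide blocks and leaving out each array. Probe positions are those of the array annotation, which does not give exon or untranslated region.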

Additional observations from a re-analysis of the deposited data

Results flagged for a closer look

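The 6 fetal liver B cell arrays were taken as 1 side of the comparison. Among them, 13 of 116 named genes had 1 array far from the other 5 by Dixon's test. In 10 of them the array was B IgM+ 21: Trbc2 (-1.215), Adal (0.152), Xrcc6 (-0.571), H2-Oa (1.157), H2-Ob (1.833), Nlrc5 (-0.441), Serpina1a (-3.942), Mpo (-4.604), Camp (-1.837) and Krt14 (2.073). B IgM+ 19 was apart for Gm10433 (0.605) and Apob (-1.592), and B IgM- 18 for Gimap1 (0.571).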

How the results depend on the processing

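Calls of higher and lower genes numbered 79 and 102 with normexp background, 29 and 111 with quantile scaling, 29 and 112 with the authors' series matrix, 13 and 37 with median scaling, 4 and 1 with the mean of a gene's probes, 73 and 73 with array weights, 116 and 93 on the 18 arrays only, and 116 and 144 on those arrays in 2 groups. They numbered 17 and 15 with slide as a fixed block, 0 and 0 with slide as a random block (3289 genes had an unadjusted p under 0.05 in limma), and 2 and 0 when arrays with the same title number were averaged. Without B IgM+ 21 and tg B 23 they were 26 and 32. Added after seeing the data were the 18 arrays less B IgM+ 21 (18 and 6) and each probe tested on its own (15 and 11). Leaving out 1 array gave 0 to 219 higher and 0 to 146 lower. Dropping the filter (26 and 37) or a stricter one (31 and 51) moved neither count by over 1.5 times. The cause was not tested. No paired analysis was possible because no title number is shared between groups.

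Of 116 named genes, these turned direction. With slide as a fixed block they were Tnfrsf22 (0.11), Bcl11b (-0.52), Cd2 (-0.63), Themis (-1.66), Cd27 (-1.61), Cd4 (0.16), Fjx1 (0.23), Lig4 (-0.73), Xrcc6 (-0.23), Hmgb1 (-0.64), Gimap1 (-1.35), Gimap4 (-0.99), Fasl (0.16), Tbx21 (0.0388), Cd37 (0.0590), Cplx2 (-0.17), H2-Oa (0.53), H2-Ob (0.44), Nlrc5 (-0.29), Il2rg (-3.39), Il15ra (-0.24), Hmga2 (0.0625), Igf2r (-0.53), Igf2bp2 (-0.38), Apob (0.0383), Serpina1a (-0.16), Hba-x (-1.55), Camp (-0.42), Klrd1 (-0.15), Kitl (0.20), Krt14 (0.26), Krt18 (-0.61), Mcm2 (-1.85), Fos (-1.05), Hspa1a (1.06), Fosb (0.43), Cd8a (-0.38) and Cd8b1 (-0.41). Only slide 1 holds both lineages. In that fit slide 4 is tied to the other slides only through B IgM+ 19 against B IgM+ 20 and B IgM+ 21. Slide 1 is tied to slide 3 through SP4 11, and to slide 2 through the transgenic array tg DP 4. The fit thus rests on few arrays and need not follow the difference within slide 1. With the mean of a gene's probes they were Deptor (0.11), H2-Ob (0.49), Apoa2 (0.20), Klra8 (0.26) and Birc5 (0.0853). Il15ra (-0.0169 and -0.0177) and Cd8b1 (-0.15 in both) turned with quantile scaling and with the series matrix. Of these genes Tnfrsf22 alone was called with all arrays. No named gene turned direction when 1 array was left out.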
